A study of Mus musculus with 96 samples.

Results

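The genes described here are 45 genes of mitosis, the division of duplicated chromosomes between daughter cells, measured in 48 single mouse embryonic stem (ES) cells. They were chosen by symbol from textbook roles, with earlier results of these data known. The roles covered kinases, cyclins, spindle checkpoint, kinetochore, condensin, spindle and cytokinesis genes. Each of the 45 had a row in the count table of 23284 genes, and all 45 passed the minimum of 10 reads per cell on average that 11746 genes passed over all cells. By role they comprised 11 genes of cyclins and mitotic entry, 8 of the spindle checkpoint and anaphase, 8 of the kinetochore and centromere, 7 of chromosome structure, 7 of the spindle and 4 of cytokinesis.

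All cells were of the J1 ES clone, passages 12 to 20, grown without feeder cells in medium with fetal bovine serum and leukaemia inhibitory factor (LIF), and they form 1 group with no treatment and no control. J1 is 1 line, and the labels name no separate cultures, so nothing measured here extends beyond these cells. Cells were caught on a Fluidigm C1 chip and only cells whose cDNA amplified well were taken on to libraries; each library was sequenced on 2 lanes, and the lanes were summed.

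Entry into mitosis is driven by the kinase Cdk1 bound to B-type cyclins, switched on by Cdc25 phosphatases and supported by the Plk1 and Aurora kinases. Condensin and topoisomerase II compact and untangle the chromosomes, kinetochores attach them to the spindle, and the spindle checkpoint holds back the anaphase-promoting complex (APC/C), a ubiquitin ligase, until all are attached. Many of these genes are transcribed mainly in the G2 and M phases: the MuvB complex binds the cell cycle genes homology region (CHR) in their promoters, with NF-Y at nearby CCAAT boxes. Mouse ES cells in serum cycle fast with a short G1 phase, so a population holds cells in every phase.

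The cells held between 4408953 and 9767245 reads in genes, with a median of 7054853, and between 8039 and 10291 genes with a read. Levels are given in CPM, a cell's reads divided by its scaled library total and put on a common scale. Gata6, a transcription factor of primitive endoderm, divided the cells without intermediate values: 35 cells had at most 1.11 CPM and 13 cells had 63.7 to 808 CPM. The 10 naive pluripotency markers summed to a median of 3070 CPM (419 to 5771) in the 35 cells and 854 CPM (181 to 1618) in the 13. The 11 primitive endoderm markers summed to 309 CPM (45.4 to 1391) and 16391 CPM (10440 to 38600), so the 35 cells carry the naive markers of ES cells and the 13 cells high endoderm markers beside lower naive ones. The 7 core pluripotency markers summed to 4043 CPM (3027 to 7607) in the 35 cells and 2832 CPM (1326 to 9950) in the 13, and their ranges overlap. The 7 fibroblast markers had a median sum of 0 CPM in both sets and at most 35.9 CPM, with Col3a1, Lum, Dcn and Postn at 0 reads in every cell. The 5 trophoblast markers summed to a median of 22.0 CPM (0 to 303) in the 35 cells and 1.33 CPM (0.139 to 33.9) in the 13, with Cdx2 at 0 reads in every cell. The 3 2-cell-like markers Zscan4c, Zscan4d and Zscan4f had 0 reads throughout. A count of 0 allows up to 3 reads, which is 0.307 CPM in the deepest and 0.680 CPM in the shallowest cell. Cells are named by their number in the labels, and cell 44 stands apart: its mitosis genes summed to 29373 CPM, against 18771 CPM in the next highest cell. No doublet caller was run; cell 44 had the fewest genes with a read, 8039, and 6127719 reads.

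The promoters of 7 members are shown: Cdk1, Plk1, Top2a, Ckap2 and Ncaph varied more than genes of like level in both fits below, and Ube2c and Ccnb1 are the pair of closest co-variation. Each runs 5′ to 3′ along the gene's strand from 250 bases before to 50 bases after the start, from RefSeq on GRCm38.p6, with TTTGAA or TTCGAA, and likewise the CCAAT box, in capitals on either strand. The windows are, in order, chr10:69352863-69353162 (minus strand), chr7:122159185-122159484 (plus), chr11:99024140-99024439 (minus), chr2:164769679-164769978 (plus), chr8:22185770-22186069 (minus), chr2:127133905-127134204 (minus) and chr13:100786437-100786736 (minus).
Cdk1: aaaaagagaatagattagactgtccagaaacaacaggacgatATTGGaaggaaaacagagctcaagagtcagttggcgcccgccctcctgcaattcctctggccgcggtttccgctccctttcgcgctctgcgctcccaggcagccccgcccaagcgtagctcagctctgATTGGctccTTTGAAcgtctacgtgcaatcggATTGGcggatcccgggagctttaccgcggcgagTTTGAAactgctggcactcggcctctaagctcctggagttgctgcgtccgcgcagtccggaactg
Plk1: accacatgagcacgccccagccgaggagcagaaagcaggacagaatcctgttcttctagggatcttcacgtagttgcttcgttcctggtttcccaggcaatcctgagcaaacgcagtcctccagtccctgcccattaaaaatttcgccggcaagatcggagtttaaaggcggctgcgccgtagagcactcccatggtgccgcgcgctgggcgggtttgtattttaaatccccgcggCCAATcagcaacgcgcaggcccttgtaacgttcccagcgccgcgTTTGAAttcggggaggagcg
Top2a: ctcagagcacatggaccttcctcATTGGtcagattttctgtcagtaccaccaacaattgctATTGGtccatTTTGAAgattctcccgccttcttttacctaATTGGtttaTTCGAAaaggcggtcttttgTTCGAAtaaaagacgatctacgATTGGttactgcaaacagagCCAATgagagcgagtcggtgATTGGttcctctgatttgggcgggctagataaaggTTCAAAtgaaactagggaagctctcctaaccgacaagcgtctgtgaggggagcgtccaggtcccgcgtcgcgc
Ube2c: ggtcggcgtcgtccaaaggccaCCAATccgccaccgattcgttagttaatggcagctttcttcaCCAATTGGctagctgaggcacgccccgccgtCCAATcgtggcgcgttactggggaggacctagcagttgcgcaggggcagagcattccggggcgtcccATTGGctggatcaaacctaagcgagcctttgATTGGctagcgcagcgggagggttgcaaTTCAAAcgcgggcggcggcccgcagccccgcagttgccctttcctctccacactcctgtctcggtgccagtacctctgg
Ckap2: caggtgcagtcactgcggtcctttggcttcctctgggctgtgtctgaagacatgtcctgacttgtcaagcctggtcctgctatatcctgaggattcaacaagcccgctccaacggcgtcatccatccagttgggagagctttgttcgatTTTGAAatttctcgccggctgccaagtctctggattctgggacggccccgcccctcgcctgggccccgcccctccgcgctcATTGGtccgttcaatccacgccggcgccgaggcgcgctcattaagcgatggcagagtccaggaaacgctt
Ncaph: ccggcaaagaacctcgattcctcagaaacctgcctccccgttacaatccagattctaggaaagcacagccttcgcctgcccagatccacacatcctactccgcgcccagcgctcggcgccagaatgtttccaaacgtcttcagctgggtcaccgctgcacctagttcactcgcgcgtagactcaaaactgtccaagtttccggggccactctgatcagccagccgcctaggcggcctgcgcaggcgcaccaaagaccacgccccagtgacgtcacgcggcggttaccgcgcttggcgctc
Ccnb1: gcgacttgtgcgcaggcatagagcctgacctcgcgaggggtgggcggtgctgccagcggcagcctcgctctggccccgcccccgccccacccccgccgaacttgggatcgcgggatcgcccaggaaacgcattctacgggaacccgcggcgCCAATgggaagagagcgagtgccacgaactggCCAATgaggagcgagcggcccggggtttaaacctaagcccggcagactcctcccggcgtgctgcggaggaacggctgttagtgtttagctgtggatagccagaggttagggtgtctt

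Positions count from the start, which is position 1, and give the first base of a match. In Cdk1, TTTGAA lies at -71 and -15, beside CCAAT at -208, -80 and -48. In Plk1 the TTTGAA follows the start, at 31, with a CCAAT at -14. Top2a, the topoisomerase, holds TTTGAA at -179 and -23, TTCGAA at -140 and -120, and 6 CCAAT boxes. Ube2c, which hands ubiquitin to the APC/C, has TTTGAA at -29 and 6 CCAAT boxes, a pair of which overlap at -186 and -183. In Ckap2, a microtubule-binding protein of the spindle, TTTGAA lies at -101 and CCAAT at -20. Ncaph, a condensin subunit, has no match to any of these motifs in its window. Ccnb1, cyclin B, has CCAAT at -99 and -67 and no match to TTTGAA or TTCGAA in this window.

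Matches were found for 39 of the 45 members, with 42 windows. Searched on both strands, TTTGAA was in 28 of the 42 windows (66.7%), against 11.6% of 10733 windows of 8357 other genes tested and 17.9% of all 32851 windows. TTTGAA or TTCGAA was in 71.4% of members' windows, against 13.5% of those of other tested genes, and CCAAT in 76.2% against 38.0%. Both kinds of motif together were in 66.7% of members' windows, against 5.51%. In 24 of the 42 windows (57.1%) a TTTGAA lay within 50 bases of the start, against 2.80%. By gene, 27 of 39 members (69.2%) held TTTGAA or TTCGAA, against 15.9% of the 8357 other genes tested. The 12 members with none in this window were Birc5, Ccnb1, Cenpe, Cks2, Mad2l1, Ncaph, Nek2, Nuf2, Nusap1, Plk4, Pttg1 and Tacc3. No window was matched for Ccna2, Cdc25c, Incenp, Smc4, Tpx2 and Dlgap5. A match is a description of letters, not a measured binding site.

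Most mitosis genes were read in nearly every cell, at levels that varied widely between cells. Together they summed to between 5203 CPM (cell 13) and 29373 CPM (cell 44), with a median of 10056 CPM. Per kilobase of exon, median levels over the 48 cells were highest for Ccnb1 (213 CPM per kilobase), Top2a (196), Cks2 (180), Pttg1 (172) and Ccnb2 (158), and lowest for Plk4 (5.64), Nek2 (0.679) and Cdc25b (0). With every cell thinned to 4408953 reads, 23 of 45 members had at least 5 reads in all 48 cells and 42 in at least 40. The exceptions were Cdc25b in 16 cells (33.3%, exact Clopper-Pearson 95% interval 20.4% to 48.4%), Nek2 in 27 cells (56.2%, 41.2% to 70.5%) and Cdc25c in 38 cells (79.2%, 65.0% to 89.5%). These intervals cover only the sampling of 48 cells. The reads carry no molecular identifiers, and the intervals do not cover what that leaves uncertain. Low values were common all the same: 30 of 45 members fell under 10 CPM in at least 1 cell, and 6 had 0 reads in at least 1 cell. Cell 44 held the highest value of 11 members, cell 37 of 5 and cell 24 of 4.

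To ask which members varied between cells more than genes of like level, the variance of log2(CPM + 1) was set against a trend over all genes with scran's modelGeneVar (one-sided, Benjamini-Hochberg adjustment, threshold 0.05). The p-values set a gene against the scatter of other genes around the trend, not against other cells. Over all 48 cells 5 of 45 members (11.1%) were called, Cdk1, Plk1, Top2a, Ncaph and Ckap2, where 2.03% of all genes tested were (239 of 11746). Within the 35 cells with Gata6 under 20 CPM 9 of 45 (20.0%) were called, where 1.75% of all genes were (200 of 11454): the same 5 and Cenpe, Mad2l1, Mki67 and Prc1. Above the trend lay 36 of 45 members in each fit, with a median of 0.67 over all cells and 0.52 in the 35 cells on the log2 variance scale, against 0.01 and 0.03 for all genes tested. At an unadjusted p under 0.05 there were 22 members in each fit, against 615 of all genes over all cells and 655 in the 35 cells. With other scaling factors the count over all cells fell to 2 (scran factors) or 3 (library size, poscounts), and with a pseudocount of 10 CPM to 0; in the 35 cells the latter left 2. The share of all genes called with those scaling factors is not given here.

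**Figure D1:**
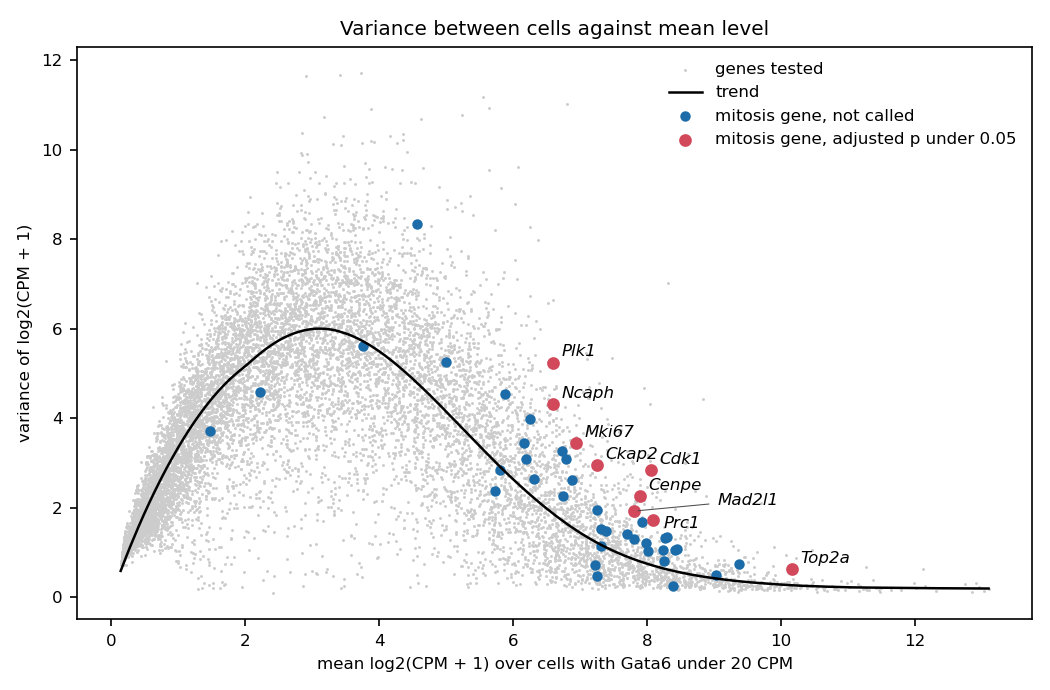
Variance of log2(CPM + 1) over the 35 cells with Gata6 under 20 CPM (y axis) against mean log2(CPM + 1) (x axis). Grey points are the 11454 genes tested, the line is the trend, blue points are mitosis genes not called and red points the 9 called; Plk1 lies farthest above the line among the red points and Top2a has the highest mean.

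Among the genes of mitotic entry, Cdk1 and Plk1 were called in both fits. Cdk1 spanned 0.206 to 1327 CPM around a median of 327 CPM. Its variance in the 35 cells was 2.84 against a trend of 0.72 (scran's adjusted p = 2.3e-12), and this rests on cell 18 alone. That cell had 1 Cdk1 read among 5966621, the next lowest cell had 60.9 CPM, and without cell 18 the adjusted p was 0.854 in the 35 cells and 0.905 over all cells. Ccnb1, by contrast, was at 264 CPM in cell 18. Plk1, the kinase that promotes centrosome maturation and mitotic entry, ran from 0.206 CPM, also in cell 18, to 508 CPM in cell 37, with a median of 137 CPM. Low Plk1 was not a matter of 1 cell: 7 cells were under 10 CPM and 4 under 1 CPM. Its variance in the 35 cells was 5.24 against a trend of 1.87 (scran's adjusted p = 0.000125), and it stayed called without any 1 of the 35 cells (highest adjusted p 0.00406). Over all cells, where its adjusted p was 0.0334, the call was lost without cell 5, 6, 18, 26, 37 or 47, with adjusted p from 0.0531 to 0.0773.

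The other entry genes were not called. Cdc25c, a phosphatase that activates Cdk1, had the largest variance above the trend of this role over all cells, 8.44 against 4.51 (scran's adjusted p = 0.428). It ran from 0 to 337 CPM with a median of 72.6 CPM; 16 cells were under 10 CPM and 2 at 0 reads. Cdc25b, its relative, was at 0 reads in 25 cells and reached 71.0 CPM. Cks2, a small subunit that binds Cdk1, was the steadiest: 42.9 to 461 CPM, median 124 CPM, with a variance over all cells of 0.64 under a trend of 1.60. Ccnb1 ran from 192 to 2352 CPM and Ccnb2 from 37.7 to 887 CPM, both highest in cell 44. Ccna2, cyclin A, ran from 1.05 to 304 CPM. Aurka, the Aurora kinase of the centrosome, ran from 2.98 to 1244 CPM, Plk4, which starts centriole duplication, from 0 to 190 CPM, and Nek2, which separates centrosomes, from 0 to 83.1 CPM.

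Of the checkpoint and anaphase genes, Mad2l1, which sequesters the APC/C activator Cdc20, was called in the 35 cells. It ran from 2.58 to 746 CPM with a median of 265 CPM, and the low end was again a single cell: cell 26, with the next lowest at 54.7 CPM. The variance was 1.93 against a trend of 0.85 (scran's adjusted p = 0.0257), and without cell 26 the adjusted p was 0.947. Bub1 and Bub1b, checkpoint kinase and pseudokinase, lay farthest above the trend of this role over all cells and were not called (scran's adjusted p 0.229 and 0.379). Bub1 ran from 0.365 to 883 CPM with a median of 147 CPM, and Bub1b from 0.153 to 960 CPM with a median of 171 CPM. Their partner Bub3 was the least variable of this role relative to trend over all cells, 33.1 to 957 CPM around 339 CPM. Pttg1, the securin that APC/C degrades at anaphase, ran from 6.45 to 782 CPM; its adjusted p in the 35 cells was 0.0655, and it was called in 13 of the 35 fits that each left out 1 cell. Ttk, the checkpoint kinase Mps1, ran from 0 to 886 CPM, Cdc20 from 0.309 to 387 CPM and Ube2c from 19.8 to 1277 CPM.

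Of the kinetochore and centromere genes, Cenpe, a kinesin that moves chromosomes to the spindle equator, was called in the 35 cells. It ran from 4.93 CPM in cell 14 to 1542 CPM, with a median of 260 CPM and 45.7 CPM in the next lowest cell. Its variance was 2.26 against a trend of 0.80 (scran's adjusted p = 9.47e-05), and without cell 14 the adjusted p was 0.155. Members of the Ndc80 complex, the kinetochore's grip on microtubules, reached low values more often. Ndc80 lay farthest above the trend of this role over all cells and was not called (6.13 against 3.79, scran's adjusted p = 0.906). It ran from 0.226 to 496 CPM around 78.4 CPM, with 11 cells under 10 CPM, and Nuf2 from 0.152 to 390 CPM around 45.0 CPM, with 10 such cells. Spc25 of the same complex was under 10 CPM in 2 cells and ran from 1.92 to 662 CPM. Cenpa, the histone variant of the centromere, was the least variable of this role relative to trend over all cells, with a variance of 0.94 under a trend of 1.68. It ran from 25.4 to 472 CPM with a median of 126 CPM. Birc5 and Incenp, both subunits of the chromosomal passenger complex, differed in range: 121 to 606 CPM for Birc5 and 0.272 to 427 CPM for Incenp. Cenpf, a large kinetochore protein, ran from 17.7 to 1119 CPM.

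Chromosome structure held the most calls of any role in the 35 cells, 3 of 7. Top2a ran from 204 CPM in cell 38 to 3855 CPM in cell 44, with a median of 1022 CPM, so it was well counted in every cell. Its variance in the 35 cells was 0.64 against a trend of 0.27 (scran's adjusted p = 0.0109); the adjusted p was 0.135 without cell 9 and 0.0849 without cell 44. Over all cells the adjusted p was 0.0154, and 0.0729 without cell 38 and 0.0632 without cell 44. Ncaph, the kleisin subunit of condensin I, ran from 0.154 to 810 CPM around 123 CPM, and 11 cells were under 10 CPM, 7 of them among the 13 with Gata6. Its adjusted p by scran was 0.048 over all cells, where it kept the call in 25 of the 48 fits that each left out 1 cell (highest 0.0899, without cell 43). In the 35 cells it was 0.0194, and 0.0520, 0.216 and 0.0538 without cells 18, 42 and 44. Mki67, the proliferation marker Ki-67 that coats mitotic chromosomes, ran from 0.633 CPM in cell 39 to 668 CPM in cell 10, around 158 CPM. In the 35 cells its variance was 3.44 against a trend of 1.49 (scran's adjusted p = 0.0201), with 0.0766, 0.0720 and 0.565 without cells 10, 18 and 39. Smc2 and Smc4, the condensin ATPases, ran from 147 to 1427 CPM and from 3.17 to 955 CPM. The adjusted p of Smc4 in the 35 cells was 0.0685, and it was called in 13 of the 35 fits with 1 cell left out. Ncapd2, the least variable of this role relative to trend over all cells, ran from 1.44 to 338 CPM around 89.9 CPM, and Ncapg from 0.730 to 652 CPM.

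Of the spindle genes, Ckap2 was called in both fits. It ran from 0.994 to 1007 CPM around 174 CPM, with 6 cells under 10 CPM and its highest value in cell 44. Its variance in the 35 cells was 2.96 against a trend of 1.22 (scran's adjusted p = 0.00642), and the adjusted p was 0.0561 without cell 17 and 0.0536 without cell 26. Over all cells it was 0.0216, and between 0.0517 and 0.0631 without cell 5, 22 or 35. Nusap1, which binds and bundles spindle microtubules, lay farther above the trend over all cells than Ckap2 but was not called (6.13 against 3.00, scran's adjusted p = 0.173). It ran from 0 to 540 CPM around 111 CPM, with 9 cells under 10 CPM, 6 of them among the 13 with Gata6. Ckap5, a microtubule polymerase, was the least variable of this role relative to trend over all cells, from 47.3 to 1037 CPM around 249 CPM. Tpx2, an activator of Aurka, ran from 36.8 to 1044 CPM, Hmmr from 10.8 to 1157 CPM, Tacc3 from 1.87 to 512 CPM and Dlgap5 from 0.463 to 963 CPM; the last 3 are microtubule-associated proteins of the spindle.

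In cytokinesis, Prc1, which bundles the microtubules of the central spindle, was called in the 35 cells. It ran from 16.6 to 2001 CPM around 297 CPM, and the highest value, in cell 44, was followed by 1020 CPM. Its variance was 1.74 against a trend of 0.71 (scran's adjusted p = 0.00598), with an adjusted p of 0.0879 without cell 19 and 0.0869 without cell 44. Over all cells its adjusted p was 0.0503, and it was called in 32 of 48 fits with 1 cell left out. Ect2, the exchange factor that activates RhoA at the cleavage site, lay farthest above the trend of this role over all cells (3.31 against 2.05, scran's adjusted p = 0.906), with 1.92 to 640 CPM around 112 CPM. Racgap1, its partner in the central spindle, lay at the trend (2.87 and 2.87) with 0.996 to 435 CPM around 92.3 CPM. Anln, the contractile ring scaffold anillin, ran from 16.5 to 877 CPM around 172 CPM.

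Members co-varied weakly across the 35 cells. The mean Spearman correlation over the 990 pairs of members was 0.119 and the median 0.116, beside a mean of 0.00126 over all pairs of the 11454 genes tested. Above 0.3 lay 195 pairs (19.7%), against 4.67% of all gene pairs, and below -0.3 lay 15 (1.52%), against 4.28%. These are descriptions over 35 cells that share a chip, a culture as far as the labels say, and scaling factors, and no p is given. The mean was 0.0786 with scran factors (all genes 0.00864), 0.0934 with library size (0.0114) and 0.0998 without cell 44.

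The closest pairs joined different roles. Ccnb1 and Ube2c, a cyclin and an enzyme of its destruction, had a correlation of 0.710 over the 35 cells (0.624 with scran factors, 0.686 without cell 44). Cks2 and Smc2 followed with 0.692 (0.600 with scran factors) and Cdk1 and Smc2 with 0.667 (0.577). The lowest pairs were Nuf2 and Tacc3 at -0.422, Plk1 and Cdc25c at -0.402, and Nek2 and Cdc20 at -0.377, all of which stayed below -0.3 with scran factors. Within roles, the 21 spindle pairs had the highest mean, 0.231, and all 21 were above 0, the lowest at 0.0249. Chromosome structure followed with 0.161, cytokinesis with 0.143, checkpoint and anaphase with 0.101, kinetochore and centromere with 0.0792 and mitotic entry with 0.0462.

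**Figure D2:**
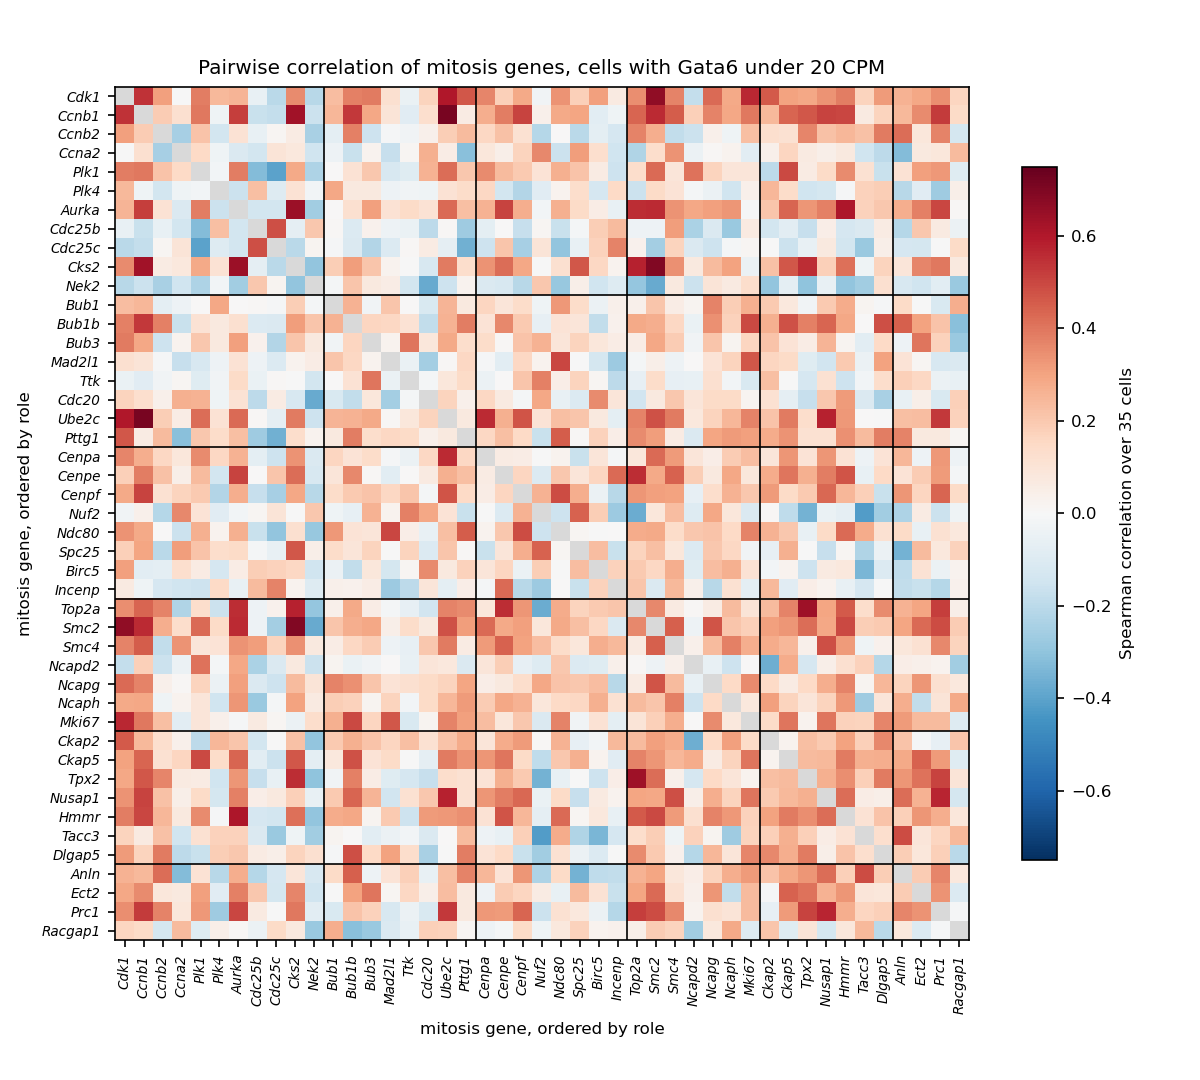
Spearman correlation of log2(CPM + 1) for each pair of the 45 mitosis genes (both axes, ordered by role, lines between roles) over the 35 cells with Gata6 under 20 CPM. Red is positive and blue negative, with the diagonal in grey; the rows of Cdk1, Ccnb1 and Smc2 are mostly red, and those of Nek2 and Cdc25c are mostly blue.

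Each member was then set against the mean standardised log2 value of the other 44. Cdk1 followed that mean most closely (Spearman 0.758), then Ccnb1 (0.707), Ube2c (0.671), Smc2 (0.624) and Ckap5 (0.588). The median over members was 0.345, 39 of 45 were above 0, and 27 of 45 lay above 0.309, the 95th percentile of all other genes tested against the mean of the 45. The members below 0 were Nek2 (-0.146), Cdc25c (-0.138), Cdc25b (-0.0390), Incenp (-0.0311), Cdc20 (-0.0148) and Racgap1 (-0.00784). Of these, Nek2 and Cdc25b were under 10 CPM in 26 and 28 of the 35 cells. With scran factors Cdk1 (0.673) and Ccnb1 (0.592) were again the first and second. The members below 0 changed in part: Nek2 (0.00634) and Cdc25b (0.0529) were then above 0, and Ncapd2 (-0.0857) and Birc5 (-0.00308) below. Among the 9 members called variable in the 35 cells the values ran from 0.0997 (Mad2l1) and 0.297 (Ncaph) to 0.550 (Mki67) and 0.758 (Cdk1). Members with TTTGAA or TTCGAA in the promoter window had a median of 0.367 (27 genes, -0.0390 to 0.758), and those without had 0.229 (12 genes, -0.146 to 0.707), so the ranges overlap almost wholly. The mean of the 45 had a Spearman correlation of 0.285 with total reads and -0.297 with genes with a read, and of 0.0964 and 0.0492 with scran factors. The mean pair correlation of members was 0.102 in cells thinned to equal depth and 0.101 with genes detected regressed out of each gene (all genes 0.00616 and 0.00314).

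Other lists of the cell cycle were placed beside the same mean in the 35 cells. The mean of 71 other mitosis genes, such as kinesins, further centromere proteins and condensin II, followed it with a Spearman correlation of 0.687 and a Pearson correlation of 0.659 (Spearman 0.532 with scran factors, 0.636 without cell 44, 0.646 without the 2 cells farthest from the median). Of the 71 genes, 56 were above 0, the median was 0.186, and the highest were the condensin II subunit Ncapg2 (0.507), the kinesin Kif22 (0.456) and Fam64a (0.447). Hjurp, the chaperone of Cenpa, was lowest at -0.302 and Pkmyt1, a kinase that inhibits Cdk1, next at -0.285, both at low levels, with medians of 0.158 and 0 CPM. By scran's test 5 of the 71 were called in the 35 cells (7.04%, beside the 1.75% of all genes): Ccnf (adjusted p = 2.2e-12), Kif20a, Psrc1, Kif22 and Cenpt, and over all cells 3, Ccnf, Kif20a and Cenpt. Ccnf, cyclin F of a ubiquitin ligase, ran from 0.454 to 889 CPM in the 35 cells with a median of 213 CPM, and Kif20a, a kinesin of cytokinesis, from 0.873 to 1337 CPM with a median of 232 CPM.

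The lists of the APC/C and of transcriptional regulators of mitosis gave values nearer 0. The mean of 16 APC/C genes stood at -0.0403 with the mitosis mean and that of 19 regulators of mitotic genes at 0.131. By scran 0 of either list were called in either fit, where 1.75% of all genes were in the 35 cells and 2.03% over all cells. At unadjusted p under 0.05 there were 1 and 0 in the 35 cells, against 655 of 11454 genes, and 0 and 1 over all cells, against 615 of 11746. In lists of 16 and 19 genes, 0 calls at those shares do not set them apart from all genes. Single genes of both lists reached higher correlations with the mitosis mean in each direction: Anapc10 (0.504), Fbxo5 (0.428) and Fzr1 (0.419) against Anapc11 (-0.322) and Ube2s (-0.271), and Rbbp4 (0.426), Lin54 (0.239) and Lin37 (0.208) against Nfya (-0.359) and E2f4 (-0.295). Cohesin is the complex that holds sister chromatids together. The mean of 9 genes of cohesin and its regulators stood at 0.403 (0.268 with scran factors). The highest were Stag1 (0.445), Rad21 (0.399) and Nipbl (0.171), and the lowest Wapal (-0.00252) and Pds5a (-0.0874). Of these 9, 0 were called by scran in either fit, beside the same shares of all genes, and a list this short can hold 0 calls at those shares. At unadjusted p under 0.05 there were 3 in the 35 cells and 1 over all cells.

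Genes of the G1 to S transition, as a list, showed almost no relation to the mitosis mean in the 35 cells. The mean of 44 such genes had a Spearman correlation of 0.0639 with it (Pearson 0.0472, Spearman -0.0633 with scran factors), and 25 of 44 genes were above 0. The highest were Uhrf1 (0.404), Mcm7 (0.357) and Wdr76 (0.343), and the lowest Dscc1 (-0.406) and Clspn (-0.392), which act at the replication fork. In the 35 cells 1 of the 44 (2.27%, beside 1.75% of all genes) was called by scran, the ribonucleotide reductase subunit Rrm2 (adjusted p = 0.021, 182 to 1877 CPM, median 782 CPM), and over all cells 3 (6.82%, beside 2.03%), the replication licensing genes Cdc6, Mcm4 and Mcm2. Cell 44, highest in the mitosis mean at 0.92, had a G1 to S mean of -0.26 on the same standardised scale.

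**Figure D3:**
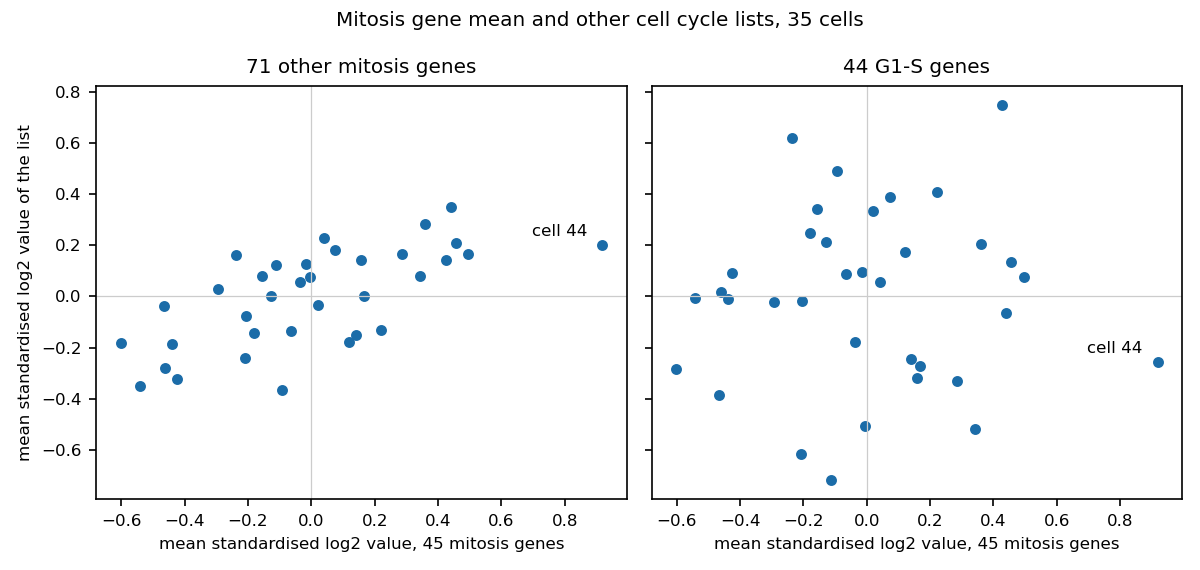
Mean standardised log2(CPM + 1) of the 45 mitosis genes (x axis, both panels) against that of 71 other mitosis genes (left) and of 44 G1-S genes (right), each point 1 of the 35 cells with Gata6 under 20 CPM. The left cloud rises (Spearman 0.687) and the right one has no slope to see (0.0639); cell 44 is the rightmost point of both.

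The 13 cells with Gata6 tended to lower levels of mitosis genes. Summed over members they had a median of 7215 CPM (5203 to 16711), against 10755 CPM (6746 to 29373) in the 35 others, with wide overlap. The cells were divided by a measured level, so this is a description without a test. The median was lower by at least 1 on the log2 scale for 15 of 45 members (33.3%), where 16.1% of all genes tested were, and higher by as much for 1, Cdc25c, where 16.7% were. The median difference over members was -0.66, against 0 over all genes. The values of the cell sets overlapped for all 45 members, and how many of all genes tested overlapped is not given here.

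On the log2 scale the largest differences of medians were in Ncaph, Ndc80 and Nusap1. Ncaph had a median of 149 CPM (0.710 to 810) in the 35 cells and 6.93 CPM (0.154 to 328) in the 13. Ndc80 had 112 CPM (0.853 to 496) and 5.56 CPM (0.226 to 77.3), and Nusap1 158 CPM (2.53 to 540) and 25.4 CPM (0 to 216). In all 3 genes the upper values of the 13 cells lay inside the range of the 35. Bub1b went from 213 to 48.3 CPM, Ckap2 from 196 to 53.4 CPM and Bub1 from 200 to 67.6 CPM. Cdk1 itself had like medians, 302 CPM and 329 CPM, as had Ckap5, 249 CPM and 251 CPM. Cdc25c went the other way, from 51.7 CPM (0 to 322) to 122 CPM (0.117 to 337). Markers of another cell type moved with this division by its construction, and the 13 cells had more reads (median 8076614, against 6419369) and a like number of genes with a read (8986 and 9045); their part in the difference was not tested.

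**Figure D4:**
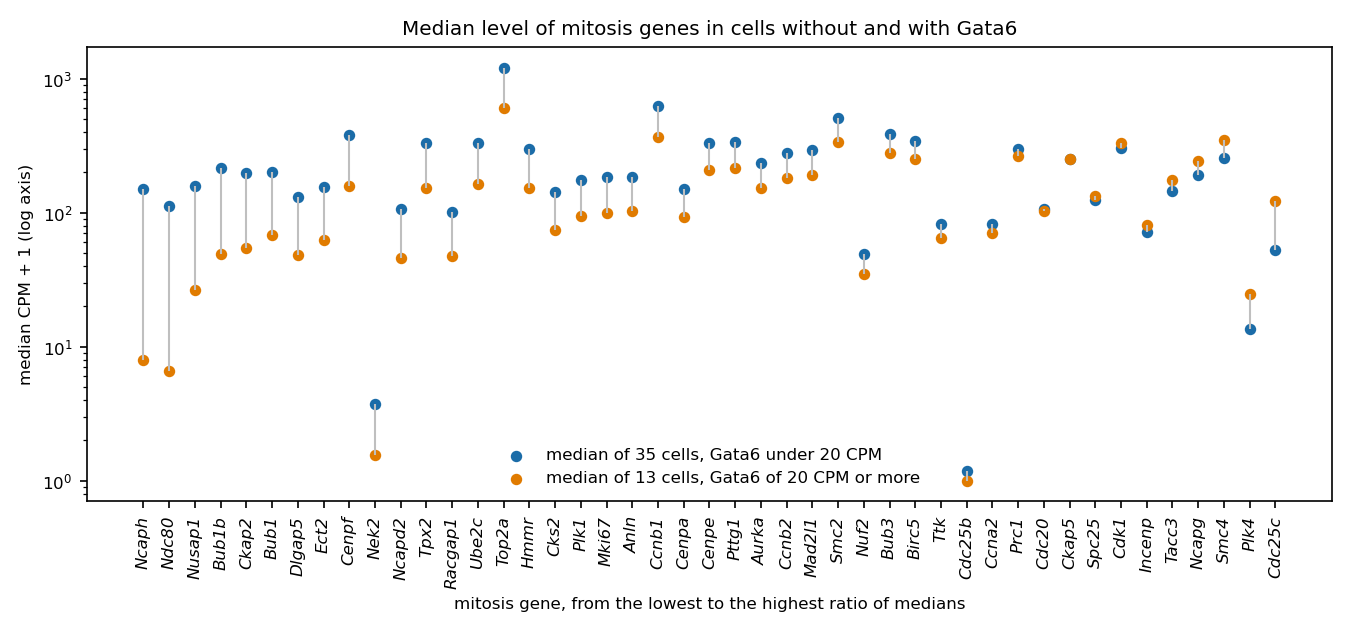
Median CPM + 1 (log axis) of each mitosis gene in the 35 cells with Gata6 under 20 CPM (blue) and the 13 others (orange), genes ordered from the lowest to the highest ratio of medians. Ncaph and Ndc80 at the left have the widest gaps, most pairs have the orange point lower, and Cdc25c at the right has it higher.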

How the data were processed

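The authors deposited unnormalized read counts per gene as 1 table of 96 libraries, 48 cells on 2 lanes each. Per the submitters' processing notes, mm9 was the build; the tools listed there are featureCounts, STAR (2.3.1z12) and Subread (1.4.5-p1). How reads with several matches were counted is not given in the sources used here, so members with near-identical copies are uncertain. The kit, per the labels, was SMARTer, which does not mark strand, so overlapping antisense reads are counted alike.

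Each column matched 1 library by its label. Lanes differed by no more than counting noise (ratio of chi-square to its degrees of freedom 0.964 to 1.05) and were summed, so a cell counts once. Counts were scaled with edgeR 4.0.16 (TMMwsp) to CPM and taken as log2(CPM + 1). Genes averaging 10 or more reads per cell entered scran's modelGeneVar (scran 1.30.0, R 4.3.3) (one-sided, Benjamini-Hochberg, threshold 0.05), over all 48 cells and over the 35 with Gata6 under 20 CPM. The procedure was tested on simulated data in which 200 genes had raised dispersion. At 4-fold dispersion it recovered 61% of them over all cells and 52% in the 35 cells, and at 8-fold 91% and 74%. Of unchanged genes it called 0.160% to 0.355%. A member not called may therefore still vary more than genes of like level. Correlations are Spearman's over the 35 cells; a list's mean is of log2 values standardised per gene. Detection was counted at 4408953 reads per cell with a minimum of 5 reads. Depth, 4408953 to 9767245 reads, sets the precision, and reads are not independent molecules.

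Ska2, Ska3 and Bora were found under older symbols. Exon lengths came from GENCODE M21 on GRCm38, another build than the counts, and promoters from RefSeq. The members and lists were chosen with earlier results of these data known. Described by name were members called in either fit, and in each role those with the 2 largest and the smallest variance above the trend over all cells. Of pairs, the 3 highest and 3 lowest were named, and of the lists the called genes and those with the 3 highest and 2 lowest correlations with the mitosis mean; other members are given by their range. Of other genes, the 10 highest and 5 lowest were named. Alternatives were other scaling factors (scran, library size, DESeq2 1.42.0 poscounts), a pseudocount of 10 CPM, other count minimums, each lane alone, thinned cells, the squared coefficient of variation, Pearson correlation, regression on genes detected and, chosen after the data were seen, leaving out each cell and the scalings of the division by Gata6.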

Additional observations from a re-analysis of the deposited data

How the results depend on the processing

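Over all cells, the 5 members called became 2 with scran factors, 3 with library size, 3 with poscounts, 0 with a pseudocount of 10 CPM, 1 with no filter on counts, 2 in thinned cells and 3 by the squared coefficient of variation; a mean of at least 50 reads gave 6, lane 1 alone 4 and lane 2 alone 7. The 239 genes called over all cells became 159 with a pseudocount of 10 CPM and 731 by the squared coefficient of variation. For the other scalings, count minimums, single lanes and thinned cells the number of all genes called is not given. Those member counts therefore cannot be told from a general change in calls. In the 35 cells with Gata6 under 20 CPM, a pseudocount of 10 CPM left 97 of 200 genes and 2 of 9 members, Cdk1 and Cenpe. The other settings gave 6 to 12 members there. The number of all genes called in them is not given, so these counts have the same limit. Leaving out each cell in turn gave 3 to 6 members and 224 to 253 genes over all cells, 7 to 11 members and 179 to 223 genes in the 35 cells, and a mean pair correlation of 0.0998 to 0.124. That correlation stayed between 0.0786 (scran factors) and 0.152 (all 48 cells) under the other settings. Members detected in all 48 cells rose from 23 to 37 with a minimum of 1 read. Members lower by at least 1 on the log2 scale in the cells with Gata6 numbered 13 to 17 under other scalings. The causes of these shifts were not tested. No paired analysis was possible because all cells belong to 1 group. At 35 to 48 cells and without molecular identifiers, a single low cell can carry a call, as for Cdk1 (1 read in cell 18), Mad2l1 (20 reads in cell 26) and Cenpe (37 reads in cell 14).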

Other observations

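Among genes other than the 45, those that most closely followed the mean of the mitosis genes over the 35 cells were a mixed set. The 10 highest were Acy1 (Spearman 0.668), Triml2 (0.644), Trip12 (0.624), Kpna2 (0.623), Gyg (0.615), Tomm7 (0.599), Snupn (0.595), Ube2t (0.578), Gm6682 (0.565) and Ccdc18 (0.565). Kpna2 is an importin alpha that carries proteins into the nucleus and also binds spindle factors such as Tpx2; it ran from 192 to 1514 CPM around 708 CPM in these cells. Acy1, an aminoacylase, ran from 0.117 to 496 CPM around 70.1 CPM, and Ube2t, a ubiquitin-conjugating enzyme of DNA crosslink repair, from 11.3 to 516 CPM around 122 CPM. With scran factors 5 of the 10 were again among the 10 highest (Acy1, Kpna2, Snupn, Trip12 and Gm6682), while Ube2t fell to rank 102 at 0.412. The 5 lowest were Slc25a10 (-0.744), Scaf4 (-0.649), Zfp94 (-0.609), A2ld1 (-0.601) and Meaf6 (-0.584). Slc25a10, a mitochondrial dicarboxylate carrier, had a median of 0.152 CPM and reached 189 CPM. These are the extremes of 11409 genes over 35 cells, chosen for their values, and carry no test.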
